A study of Mus musculus with 12 samples.

Results

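Lens cells (LCs) lacking β8 integrin were compared between 2 times after surgery, in the 6 libraries labelled β8 integrin conditional knockout, 3 taken right after cataract surgery (0 h post cataract surgery, PCS) and 3 taken 24 h later, of 12 libraries in the series. The members were chosen by their labels alone, and every gene of the table was looked at. The study removed the fiber cell mass of adult mouse lenses through an incision in the cornea, left the lens capsule with its attached LCs in the eye, and asked how LCs that cannot make the αVβ8 integrin respond to the wound. The other 6 libraries come from wild-type (WT) lenses at the same times and are used here only to show where the knockout differed. RNA was measured by total RNA sequencing, and each value is an FPKM (fragments counted per kilobase of gene length, relative to all fragments of the library) per gene and library.

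The β8ITG-cKO mice carried a floxed Itgb8 gene (exon 4 flanked by loxP sites) and the MLR10-Cre transgene, which acts in all lens cells from the lens vesicle stage on, on a mixed C57BL/6 and 129S1/Sv background. WT mice were C57BL/6 and carried neither allele, so genotype, Cre and strain cannot be told apart between the genotypes. All mice were adults of 2 months, all had the same operation (the 0 h groups too, so no unoperated lens enters the comparison), and each library pooled 5 capsules. The 3 libraries of a group are stated to be biological replicates. Capsules were taken whole, with whatever other cells adhered to them.

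LCs are the single layer of epithelial cells that lines the anterior lens capsule. They make the crystallins, the proteins that give the lens its refractive power, at far higher levels once they become fiber cells. After cataract surgery the LCs left on the capsule start an inflammatory gene response, enter the cell cycle and turn on the contractile and matrix genes of scar-forming cells, a change driven in large part by transforming growth factor β (TGF-β). αVβ8 integrin is one of the integrins that can release TGF-β from its latent complex.

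Itgb8, the targeted gene, had 6.83, 4.58 and 7.31 FPKM at 0 h and 9.28, 11.8 and 10.3 FPKM at 24 h in the β8ITG-cKO libraries. The gene value covers all exons and so also counts transcripts that lack exon 4, and it does not check the deletion. Among the 6 libraries, summed FPKM ran from 529488 to 740140, the 10 highest genes held 39.8% to 49.6% of the sum, and 12015 to 13510 genes reached 1 FPKM. FPKM alone leave the depth unknown, and the size of the steps between low FPKM values gave depths of up to 1.21 times that of the lowest library. Typical replicate spread was small, with a median standard deviation of 0.15 at 0 h and 0.16 at 24 h on the log2(FPKM + 1) scale.

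Of 15237 genes that averaged 0.5 FPKM or more, 2294 (15.1%) were called in β8ITG-cKO LCs, 1719 higher (11.3%) and 575 lower (3.77%) at 24 h. A gene was called when the adjusted p was at most 0.05 (limma on log2(FPKM + 1), Benjamini-Hochberg), the group means differed by more than 2-fold and by more than 2 FPKM, and 1 mean was at least 2 FPKM. By the adjusted p alone, which is what "passed the test" means below, 7030 genes passed (46.1%), 5394 higher (35.4%) and 1636 lower (10.7%). In 42.9% of the genes tested all 24 h libraries exceeded all 0 h libraries, and in 14% all 24 h libraries were under them. Each count of list members called, passed or not overlapping below is to be read against these shares. A count near its share says nothing particular about its list. Genes were filtered by their mean over all 6 libraries, so a gene with almost no signal at 0 h was tested only if it rose. Its pass as higher was then nearly fixed in advance, which holds for some members of the lists below. Leaving out any 1 library changed the sign of 0 of the 2294 called genes. This was nearly fixed in advance, since the genes were selected for a difference in the same libraries.

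The whole distribution was shifted: the median change over all genes was 0.23 on the log2 scale, and the changes below are to be read against that value. Crystallin messages held 13.2%, 13.6% and 13.2% of the summed FPKM at 0 h and 4.38%, 4.71% and 3.66% at 24 h. With FPKM rescaled to the same median, 1179 genes were called higher and 890 lower. With FPKM rescaled to the same sum, the counts were 3019 and 345. The direction of a weak change therefore depends on the scale, and where a list's median changes sign with it this is said. Changes are on the log2(FPKM + 1) scale, which understates the change of low genes, and in bulk RNA fewer cells of a type and less RNA per cell cannot be told apart.

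**Figure D1:**
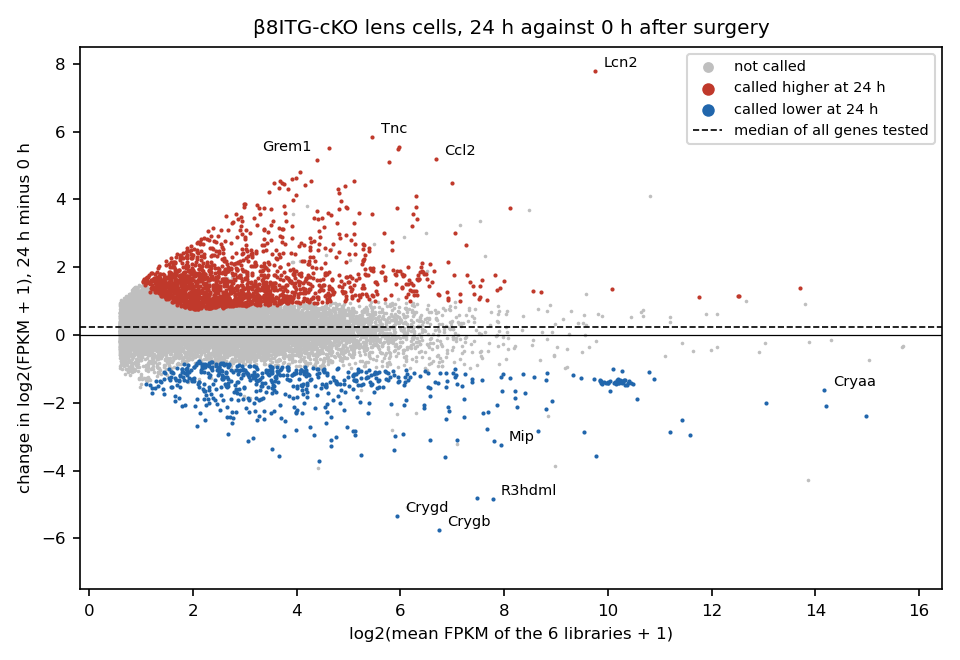
Change of each gene between 24 h and 0 h in β8ITG-cKO lens cells (log2(FPKM + 1), y axis) against its mean level over the 6 libraries (log2(mean FPKM + 1), x axis); red and blue points are the 1719 genes called higher and the 575 called lower, and the dashed line is the median of all genes, 0.23. The called rises reach their largest size among genes of low and middle level (Tnc, Grem1, Ccl2, Lcn2). Called genes toward the right edge include crystallins and the small RNA gene Rny3 below the line. The small RNA genes Bc1, Snord116l1 and Snord116l2 lie above it. Outside the y axis lies 1 gene.

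Messages of cells other than LCs also moved between the groups, and their part in the results below was not tested. Of 22 rod and cone photoreceptor markers, all 22 were tested, 21 passed the test as higher at 24 h (35.4% of all genes did) and 18 were called higher (11.3% of all genes), with summed levels of 457, 251 and 365 FPKM at 0 h and 1317, 1146 and 1352 FPKM at 24 h. Inner retina markers followed, with 11 of 16 tested genes called higher and 1 lower (3.77% of all genes), as did red blood cell markers, with 4 of 5 called higher and sums of 15.8, 6.52 and 11.7 FPKM against 195, 174 and 87.4 FPKM. Hba-a1, an α-globin gene whose near-identical copy Hba-a2 shares its reads, had 6.604, 2.58 and 4.47 FPKM at 0 h and 84.4, 80.9 and 36.2 FPKM at 24 h. Blood vessel markers were low in sum, 1.66, 2.18 and 1.29 FPKM against 9.698, 6.83 and 8.77 FPKM, and the 4 of 7 that could be tested passed as higher. The filter is a mean over all 6 libraries. Pecam1 (mean 0.237 FPKM at 0 h, 1.14 at 24 h) and Plvap (0.23 and 1.51) reached it only through 24 h, so their pass as higher was nearly fixed in advance.

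Markers of white blood cells rose too. Of 14 macrophage and monocyte markers, 12 were tested and 7 called higher, with sums of 13.4 to 21.8 FPKM at 0 h and 55.6 to 86.9 FPKM at 24 h. Lyz2, the macrophage lysozyme, had 6.59, 3.89 and 4.55 FPKM at 0 h and 11.03, 16.8 and 22.5 FPKM at 24 h. Only 2 of 11 neutrophil markers were expressed enough to test, and both passed as higher. These, Csf3r (mean 0.251 FPKM at 0 h, 6.22 at 24 h) and Cxcr2 (0.46 and 2.14), reached the filter only through 24 h. Their pass as higher was therefore nearly fixed in advance. Of the 11 neutrophil markers, 3 were listed at 0 in all 6 libraries, and the list summed to 6.43 to 14.1 FPKM at 24 h. None of 8 lymphocyte markers reached the filter, and their sum was at most 0.274 FPKM at 24 h and 0.621 FPKM at 0 h. Of 9 corneal epithelium markers 2 were expressed enough to test, and both were called lower. Krt4, a keratin of stratified epithelia, had 2.83, 3.37 and 2.92 FPKM at 0 h and 0.336, 0.374 and 0.284 FPKM at 24 h, and Aldh3a1, an enzyme abundant in the cornea and also present in lens, had 911, 535 and 756 FPKM at 0 h and 138, 145 and 189 FPKM at 24 h. Krt12, which defines that tissue, was too low to test, with 0, 0.191 and 0.119 FPKM at 0 h and 0.226, 0.503 and 0.269 FPKM at 24 h. Retinal pigment epithelium markers had 1 of 4 tested genes called higher and 2 lower, 1 of 7 iris pigment cell markers was called (Oca2, lower), and 1 of 2 corneal stroma markers tested was called (Ogn, lower). Of the 8 markers of lens epithelium, 6 passed as lower (10.7% of all genes) and 4 were called, and in all 8 all 24 h libraries were under all 0 h libraries (14% of all genes). Without Cryaa, these markers summed to 538, 598 and 574 FPKM at 0 h and 287, 308 and 339 FPKM at 24 h.

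**Figure D2:**
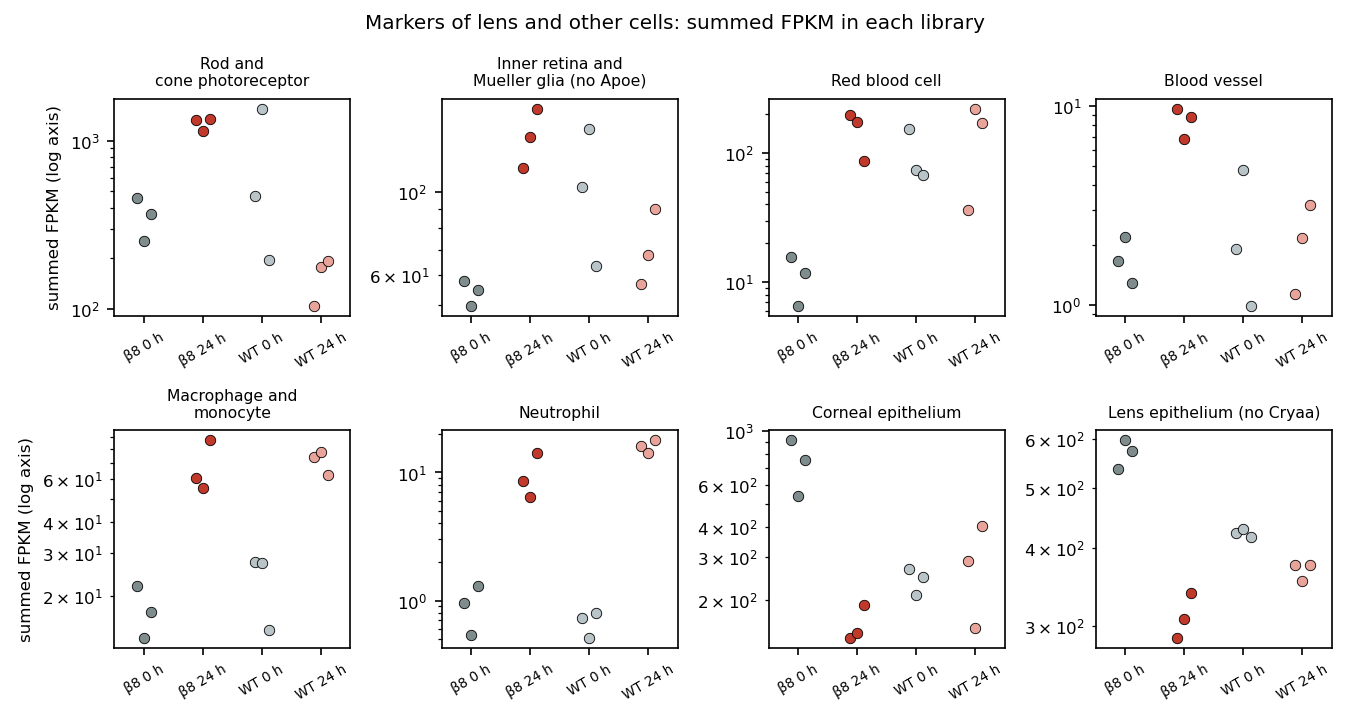
Summed FPKM (log axis) of 8 marker lists in each of the 12 libraries, 1 point a library, for β8ITG-cKO at 0 h and 24 h and for WT at 0 h and 24 h; Apoe and Cryaa, which would dominate their sums, are left out of their lists. The 3 β8ITG-cKO 24 h libraries lie above the 3 β8ITG-cKO 0 h libraries for retina, blood, vessel, macrophage and neutrophil markers and below them for corneal and lens epithelium markers. With Apoe counted, the inner retina sums in β8ITG-cKO overlap, with 787 to 1164 FPKM at 0 h and 717 to 1291 FPKM at 24 h. The corneal sum is almost all Aldh3a1, which is also present in lens (911, 535 and 756 of 915, 539 and 759 FPKM in β8ITG-cKO at 0 h). It therefore does not measure corneal cells.

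The largest rises were of secreted inflammatory and wound proteins. Lcn2 (lipocalin 2), which starves bacteria of iron by binding their siderophores, had 5.79, 5.19 and 7.44 FPKM at 0 h and 1966, 795 and 2413 FPKM at 24 h. Even the lowest 24 h library lay far above the 0 h libraries, and the change was 7.78 on the log2 scale (SE 0.38, adjusted p = 9.80e-06). Tnc, which encodes the wound matrix protein tenascin C, had 0.709, 0.286 and 0.546 FPKM at 0 h and 96.8, 67.8 and 91.96 FPKM at 24 h. No 24 h library overlapped the 0 h libraries, and it rose by 5.83 (SE 0.17, adjusted p = 1.85e-06). Grem1, a secreted antagonist of bone morphogenetic proteins (BMPs), was listed at 0 in 2 of the 0 h libraries and at 0.119 FPKM in the third, and had 63.3, 23.4 and 32.5 FPKM at 24 h.

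Among the 12 largest rises, C3 and Ifitm1 spread most between the 24 h libraries on the log2 scale. C3, the central complement component, had 2.2005, 1.43 and 1.54 FPKM at 0 h and 91.3, 45.3 and 182 FPKM at 24 h, and Ifitm1, an interferon-induced membrane protein, had 1.89, 0.432 and 1.29 FPKM at 0 h and 74.5, 44.7 and 242 FPKM at 24 h. In both, replicate 3 was the highest and replicate 2 the lowest, and no 24 h library came near a 0 h library. Steap4, an endosomal metalloreductase, had 0.0905, 0.192 and 0.244 FPKM at 0 h and 33.4, 17.8 and 37.2 FPKM at 24 h, and Plaur, the receptor of urokinase, had 0.174, 0.382 and 0.0261 FPKM at 0 h and 28.999, 24.4 and 30.5 FPKM at 24 h. Esm1, a secreted proteoglycan of activated endothelium, had 0, 0.214 and 0.1798 FPKM at 0 h and 38.4, 29.7 and 25.9 FPKM at 24 h. Cebpd, a transcription factor of the acute-phase response, had 1.59, 1.97 and 1.76 FPKM at 0 h and 77.3, 50.2 and 67.8 FPKM at 24 h, a change of 4.56 (SE 0.16, adjusted p = 2.78e-06).

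**Figure D3:**
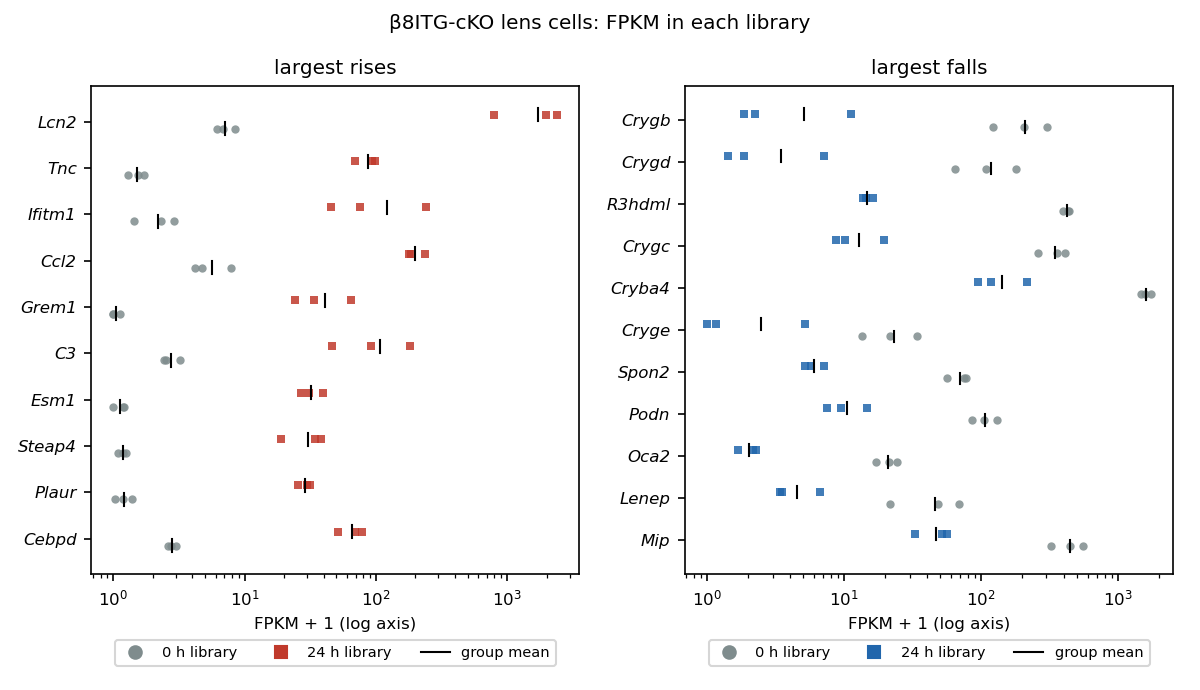
FPKM + 1 (log axis) in each β8ITG-cKO library of 10 of the 12 called genes with the largest rises (left, 24 h in red) and 11 of the 12 with the largest falls (right, 24 h in blue); grey circles are the 0 h libraries and black ticks the group means. In every gene the 3 libraries of 1 time lie apart from the 3 of the other, and the falling γ-crystallin genes spread more widely at 24 h than R3hdml.

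Chemokines, the secreted proteins that draw leukocytes to a wound, mostly rose. Of 16 ligands 13 were tested, 11 called higher and 0 lower, with a median change of 2.91 against 0.23 over all genes. Ccl2, which recruits monocytes, had 3.18, 6.87 and 3.73 FPKM at 0 h and 183, 177 and 236 FPKM at 24 h, a change of 5.2 (SE 0.24, adjusted p = 8.07e-06). Its neighbour on chromosome 11, Ccl7, had 0.126, 0.259 and 0.285 FPKM at 0 h and 15.3, 17.8 and 16.7 FPKM at 24 h. The neutrophil chemokine gene Cxcl1 had 0.1003, 0.536 and 0 FPKM at 0 h and 48.1, 17.9 and 12.8 FPKM at 24 h, and Cxcl3, from the same cluster on chromosome 5, was listed at 0 in each 0 h library and reached 6.44, 19.4 and 15.8 FPKM at 24 h. At 24 h the libraries of these genes did not overlap those of 0 h. Ccl7, Cxcl1 and Cxcl3 reached the filter only through 24 h, so their pass as higher was nearly fixed in advance. The most abundant ligands at 0 h were Cx3cl1, the membrane-bound fractalkine, which had 22.5, 20.8 and 21.05 FPKM at 0 h and 21.7, 28.6 and 24.3 FPKM at 24 h and did not pass (adjusted p = 0.204), and Cxcl14, which rose by 1.45.

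Of 16 cytokines and colony-stimulating factors 13 were tested, 8 called higher and 0 lower (median 2.12). Il1rn, the natural antagonist of the interleukin 1 receptor, was listed at 0 in all 0 h libraries and reached 9.66, 8.69 and 12.9 FPKM at 24 h. Lif and Clcf1, both ligands of the interleukin 6 family, rose by 3.29 and 3.13, and Csf3, the granulocyte growth factor, was listed at 0 in all 0 h libraries and reached 10.99, 7.46 and 1.96 FPKM at 24 h. Il33, an alarmin of epithelial nuclei, was already at 7.38 ± 1.56 FPKM at 0 h (SD, n = 3) and rose to 37.1 ± 14.1 FPKM (SD, n = 3). Tnf passed the test at a low level, with 0.08104, 0 and 0 FPKM at 0 h and 0.424, 1.84 and 1.08 FPKM at 24 h. Il1rn, Csf3, Tnf and Lif (mean 0.229 FPKM at 0 h) reached the filter only through 24 h. Their pass as higher was nearly fixed in advance. Acute-phase proteins showed the highest median of all lists, 3.23, with 9 of 10 tested genes called higher, among them Cfb, a complement factor, with 0.523, 0.123 and 0.349 FPKM at 0 h and 20.9, 8.41 and 26.1 FPKM at 24 h, and Cp (ceruloplasmin), the copper-carrying ferroxidase, with 114, 121 and 117 FPKM at 0 h and 363, 200.4 and 603 FPKM at 24 h. Cfb too reached the filter only through 24 h, and 10 of 15 acute-phase genes were tested. These cytokine and acute-phase rises stand beside the macrophage and neutrophil marker sums given above.

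The NF-κB transcription factors switch on many of these genes, and their own inhibitors are among their targets. Of 17 NF-κB subunits, inhibitors and targets, 13 were called higher and 0 lower (median 1.65), and in all 17 all 24 h libraries exceeded all 0 h libraries (42.9% of all genes). Nfkbia, which encodes the inhibitor IκBα, had 11.4, 7.72 and 8.99 FPKM at 0 h and 54.6, 57.4 and 47.2 FPKM at 24 h, a change of 2.39 (SE 0.15, adjusted p = 2.69e-05). Tnfaip3, which encodes the inhibitor A20, had 3.19, 2.36 and 1.95 FPKM at 0 h and 14.4, 12.7 and 12.97 FPKM at 24 h. Vcam1, an adhesion molecule for leukocytes, had 1.06, 0.489 and 0.524 FPKM at 0 h and 36.8, 24.6 and 25.1 FPKM at 24 h, and Bcl3, a nuclear cofactor of NF-κB, had 0.372, 0.144 and 0.146 FPKM at 0 h and 12.9, 9.33 and 12.1 FPKM at 24 h. The subunit Rela, present at 10.7 ± 1.02 FPKM at 0 h, rose by 0.64 and was not called.

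The sequence just before the start sites of 4 of these genes is shown because they rose together and NF-κB is known to bind such promoters. Capitals mark each match, on either strand, to a form of the κB motif (GGG, 2 bases of any kind, TT, 1 base of any kind and CC) within the 120 bases before the annotated start site (5′ to 3′ on the gene's strand, RefSeq, GRCm38.p6). The windows are chr5:90891125-90891244 for Cxcl1, chr5:90903779-90903898 for Cxcl2, both on the plus strand, chr12:55492648-55492767 for Nfkbia and chr10:19015411-19015530 for Tnfaip3, both on the minus strand.
Cxcl1: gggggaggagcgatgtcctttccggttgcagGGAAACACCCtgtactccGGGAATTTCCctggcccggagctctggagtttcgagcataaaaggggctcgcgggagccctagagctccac
Cxcl2: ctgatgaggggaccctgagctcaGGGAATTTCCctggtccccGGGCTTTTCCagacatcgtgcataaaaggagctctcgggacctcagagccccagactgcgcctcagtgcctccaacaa
Nfkbia: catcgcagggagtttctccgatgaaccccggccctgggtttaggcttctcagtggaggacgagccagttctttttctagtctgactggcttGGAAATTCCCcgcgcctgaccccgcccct
Tnfaip3: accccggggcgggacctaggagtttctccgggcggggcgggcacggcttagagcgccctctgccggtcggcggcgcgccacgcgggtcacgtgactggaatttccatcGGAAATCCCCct
A match to this motif occurs within 250 bases before the start of 4% of 27025 genes with an annotated promoter, counting 1 promoter a gene. Lcn2, C3 and Saa3 also rose and have no match in that window, and Steap4 has 1 match 226 to 217 bases before its start. A match describes the sequence and does not show that a factor binds there.

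Immediate early genes encode transcription factors that rise within minutes of a stimulus and usually fade within hours. At 24 h, 15 of 22 were called higher and 0 lower, with a median change of 2.04. Junb, a subunit of AP-1, had 2.89, 2.096 and 2.504 FPKM at 0 h and 56.4, 54.4 and 49.4 FPKM at 24 h, a change of 3.96 (SE 0.11, adjusted p = 1.85e-06). Fos, its partner, had 1.08, 1.09 and 1.37 FPKM at 0 h and 20.2, 20.3 and 18.3 FPKM at 24 h, and Jun had 9.93, 10.2 and 8.98 FPKM at 0 h and 63.5, 72.2 and 64.3 FPKM at 24 h. Egr1, a zinc finger factor induced by growth factor signals, had 3.15, 2.78 and 2.93 FPKM at 0 h and 58.03, 55.96 and 40.1 FPKM at 24 h. Ier3 rose most, by 3.97, from 0.785 ± 0.442 to 27.5 ± 9.803 FPKM (SD, n = 3 each). Jund, which many resting cells express, passed with a smaller change of 0.76, and 3 of the 22 did not pass. In 20 of the 22 genes all 24 h libraries exceeded all 0 h libraries (42.9% of all genes).

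Downstream of interleukin 6 family receptors, Socs3, the feedback inhibitor of that pathway, had 4.16, 3.16 and 3.51 FPKM at 0 h and 37.2, 38.5 and 46.1 FPKM at 24 h, and Osmr, the oncostatin M receptor, rose by 2.24. In that list 5 of 15 genes were called higher and 0 lower, and the shared receptor subunit gene Il6st, with 34.6, 36.4 and 37.2 FPKM at 0 h and 39.1, 35.7 and 46.4 FPKM at 24 h, did not pass (adjusted p = 0.309). Interferon-stimulated genes rose widely: 15 of 22 tested were called higher, 0 lower, and 21 passed the test. Ifitm3, which blocks virus entry, had 20.2, 7.75 and 12.7 FPKM at 0 h and 126, 81.5 and 195 FPKM at 24 h, and Irf7, the master regulator of interferon genes, had 1.66, 0.614 and 1.67 FPKM at 0 h and 11.1, 9.87 and 11.96 FPKM at 24 h. The summed level of this list was 33.8 to 58.9 FPKM at 0 h and 202 to 344 FPKM at 24 h.

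Matrix genes of fibrosis split. Of 20 tested, 8 were called higher and 2 lower, with a median of 0.46. Beside Tnc, Fn1 (fibronectin), which cells assemble into the first fibrils of a wound, had 5.86, 5.23 and 5.96 FPKM at 0 h and 73.5, 98.1 and 66.4 FPKM at 24 h, a change of 3.57 (SE 0.15, adjusted p = 5.20e-06). Spp1 (osteopontin) had 0.186, 0 and 0.1401 FPKM at 0 h and 20.3, 28.4 and 24.003 FPKM at 24 h, Fbln2 (fibulin 2) had 0.818, 0.326 and 0.4302 FPKM at 0 h and 27.1, 24.3 and 47.8 FPKM at 24 h, and Tgfbi, a TGF-β-induced adhesion protein, had 11.3, 4.36 and 8.81 FPKM at 0 h and 134, 143 and 167 FPKM at 24 h. Cyr61 and Ecm1 reached similar levels, 113 ± 12.6 and 139 ± 9.33 FPKM at 24 h (SD, n = 3 each). Thbs1 (thrombospondin 1), an activator of latent TGF-β, rose by 2.48, with 1.495, 1.92 and 1.53 FPKM at 0 h and 8.81, 12.4 and 23.6 FPKM at 24 h, a wide spread at the later time. In contrast, Sparc, a collagen-binding protein of basement membranes and the highest of the list, had 768, 998 and 913 FPKM at 0 h and 344, 413 and 430.4 FPKM at 24 h and fell by 1.17 on the log2 scale, and Lama3, a laminin chain, fell by 2.3.

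The lens capsule is a basement membrane of type IV collagen and laminin that LCs secrete throughout life. Of 6 type IV collagen chain genes tested, 4 were called lower. Col4a1 had 1191, 1941 and 1667 FPKM at 0 h and 422, 566 and 509 FPKM at 24 h, a change of -1.66 (SE 0.21, adjusted p = 6.20e-04), and Col4a2 had 497, 1030.5 and 808 FPKM at 0 h and 161, 219 and 202 FPKM at 24 h. These genes lie head to head on chromosome 8, with annotated start sites 21 bases apart. Col4a3 and Col4a4, also a divergent pair, fell by 1.35 and 1.55. The X-linked Col4a5 and Col4a6 passed with -0.77 and -0.36. With FPKM rescaled to the same sum neither passed, at -0.43 (adjusted p = 0.0773) and -0.02 (adjusted p = 0.896), and Col4a6 passed in 7 of 15 alternatives, not without 0 h replicate 2 or 3 or 24 h replicate 1 or 2. Fibrillar and other collagens went the other way in 3 called genes: Col1a1, the main chain of scar collagen, had 1.19, 0.694 and 0.842 FPKM at 0 h and 6.29, 5.64 and 6.52 FPKM at 24 h, Col18a1 had 80.7, 40.1 and 58.7 FPKM at 0 h and 120.02, 82.8 and 247 FPKM at 24 h, and Col5a1 rose by 0.92. Over all 18 collagen genes tested, 3 were called higher and 4 lower (11.3% and 3.77% of all genes), and the median was 0.3. The number called higher was 1 without 24 h replicate 3 and 2 without 0 h replicate 3. With FPKM rescaled to the same median 1 was higher and 6 lower. Col18a1 passed in 9 of 15 alternatives, with an adjusted p up to 0.128, and not without 0 h replicate 2 or 3 or 24 h replicate 1 or 3.

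Among enzymes that fold and crosslink collagen, Tgm2 (transglutaminase 2) had 1.14, 0.439 and 0.531 FPKM at 0 h and 12.7, 12.2 and 15.5 FPKM at 24 h and rose by 3.1, whereas Pcolce, an enhancer of procollagen processing, and P4ha2, a prolyl hydroxylase, fell by 1.38 and 1.32. In all, 2 of 16 were called higher and 2 lower (11.3% and 3.77% of all genes), and the median of -0.11 turned positive with FPKM rescaled to the same sum. Proteases and their inhibitors had 10 of 17 called higher and 1 lower. Beside Plaur, Plau, which encodes urokinase itself, had 0.284, 0.262 and 0.208 FPKM at 0 h and 12.98, 12.1 and 13.6 FPKM at 24 h, so the protease and its receptor both rose. Timp1, an inhibitor of metalloproteinases, had 18.4, 12.7 and 17.4 FPKM at 0 h and 105, 81.2 and 101 FPKM at 24 h, and Timp2 fell by 1.02. Adamts1 rose by 2.65, from 1.77 ± 0.459 to 16.4 ± 2.54 FPKM (SD, n = 3 each).

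Contractile and focal adhesion genes, which LCs express when they turn into myofibroblasts, had 14 of 22 called higher and 0 lower, with a median of 1.68. Acta2, the α-smooth muscle actin gene and usual myofibroblast marker, had 52.4, 32.6 and 35.99 FPKM at 0 h and 207, 379 and 207 FPKM at 24 h, a change of 2.65 (SE 0.27, adjusted p = 2.08e-04). Replicate 2 was the highest at 24 h, and the lowest 24 h library was still well above the highest 0 h library. Tagln, an actin-binding protein of smooth muscle, had 0.493, 0.609 and 0.469 FPKM at 0 h and 34.2, 51.3 and 23.04 FPKM at 24 h, and Flnc (filamin C) had 2.96, 2.37 and 2.598 FPKM at 0 h and 38.8, 38.8 and 36.5 FPKM at 24 h. Cnn3 (calponin 3), the most abundant gene of the list at 0 h, went the other way, from 219 ± 19.5 to 156 ± 13.7 FPKM (SD, n = 3 each), and passed the test without being called.

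Of the 11 integrin subunit genes tested, Itga5, the α subunit of the fibronectin receptor, was called higher, with 2.93, 3.496 and 3.22 FPKM at 0 h and 19.2, 15.8 and 15.9 FPKM at 24 h, and Itgb5 was called lower, from 148 ± 14.2 to 67.7 ± 7.32 FPKM (SD, n = 3 each). Itgav, the α subunit that pairs with β8 and β5, had 30.6, 33.2 and 32.5 FPKM at 0 h and 56.9, 57.9 and 46.2 FPKM at 24 h and passed with 0.72, and Itgb1 passed with 0.9. Itgb8 itself passed as higher, by 0.68 (SE 0.17, adjusted p = 0.0132), and did not pass with FPKM rescaled to the same median (adjusted p = 0.0749).

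Among genes of the TGF-β pathway, 6 of 25 were called higher and 0 lower, and the median of 0.32 lay close to that of all genes. The latency protein genes Ltbp1, with 17.1, 15.4 and 17.7 FPKM at 0 h and 71.8, 55.1 and 82.2 FPKM at 24 h, and Ltbp2, with 16.5, 8.84 and 13.8 FPKM at 0 h and 40.5, 25.1 and 63.1 FPKM at 24 h, rose, as did Pmepa1, a feedback inhibitor induced by TGF-β, by 1.65. The ligand gene Tgfb2 was the most abundant of the list, with 80.1, 88.6 and 80.2 FPKM at 0 h and 101, 111 and 99.9 FPKM at 24 h, and passed with a change of 0.32, close to the median of all genes. With FPKM rescaled to the same median this was 0.019 (adjusted p = 0.899), and it did not pass without 0 h replicate 1 or 3 or 24 h replicate 2. Of 17 BMP pathway genes, Grem1, Bmp2 and Acvr1 were called higher (11.3% of all genes) and 0 lower (3.77% of all genes). The BMP target genes Id2 and Id3 passed as lower, by 0.81 and 0.71. The median of this list was 0.02 and changed sign with FPKM rescaled to the same median.

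In the list of cadherins, intermediate filaments and factors of epithelial-mesenchymal transition, 4 of 15 were called higher and 1 lower. Nes (nestin) had 3.88, 8.501 and 6.51 FPKM at 0 h and 56.3, 56.4 and 48.2 FPKM at 24 h, and Krt18, a keratin of simple epithelia, had 2.37, 1.899 and 2.99 FPKM at 0 h and 14.2, 12.7 and 14.9 FPKM at 24 h. Vim (vimentin), the main intermediate filament of LCs, was high throughout, with 1917, 1894 and 1938 FPKM at 0 h and 2364, 3176 and 2888 FPKM at 24 h, and its change of 0.54 had an adjusted p of 0.0413. It passed in 8 of 15 alternatives, not without any 1 of the 0 h libraries or 24 h replicate 2 or 3, with an adjusted p up to 0.321. Cdh1 (E-cadherin), the epithelial adhesion protein, had 98.3, 93.6 and 93.2 FPKM at 0 h and 43.2, 46.5 and 37.7 FPKM at 24 h, a change of -1.15 (SE 0.1, adjusted p = 1.19e-04). Among 18 YAP/TAZ regulators and targets, Axl, a receptor tyrosine kinase, had 13.1, 7.78 and 10.8 FPKM at 0 h and 85.4, 96.9 and 88.1 FPKM at 24 h and Ankrd1 rose by 2.4, while Crim1, a membrane protein abundant in the lens, fell by 1.27, with 5 called higher and 1 lower in all. Their median, 0.03, turned negative with FPKM rescaled to the same median. Cd44, the hyaluronan receptor, had 27.6, 41.6 and 34.8 FPKM at 0 h and 115, 104 and 101 FPKM at 24 h, and the hyaluronan list had 2 of 9 called higher and 0 lower.

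Several growth factor genes rose, and FGF receptor genes moved in both directions. Hbegf, a ligand of the EGF receptor, had 25.2, 19.8 and 20.9 FPKM at 0 h and 75.01, 67.03 and 58.5 FPKM at 24 h, and Btc (betacellulin) and Nrg1 rose by 1.85 and 1.81, with 5 of 11 genes of that family called higher and 1, Erbb4, lower. Fgf2 had 0, 0.721 and 1.59 FPKM at 0 h and 12.4, 2.85 and 12.2 FPKM at 24 h. Fgfr3 and Fgfr2, receptors through which FGF drives fiber cell differentiation, both fell. Fgfr3 had 35.2, 45.5 and 39.9 FPKM at 0 h and 11.6, 9.75 and 8.56 FPKM at 24 h, Fgfr2 had 46.7, 51.4 and 49.95 FPKM at 0 h and 16.96, 18.9 and 20.9 FPKM at 24 h, and the ligand gene Fgf1 fell by 1.88. Fgfr1, another receptor gene, went the other way, with 36.6, 37.9 and 38.3 FPKM at 0 h and 57.4, 52.05 and 58.1 FPKM at 24 h, and passed with 0.56, under the fold for a call. In the FGF list 6 of 18 were called higher and 3 lower.

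All 16 crystallin genes were called lower at 24 h (3.77% of all genes), with a median change of -2.86. With FPKM rescaled to the same sum 15 were called lower. In all 16 all 24 h libraries were under all 0 h libraries (14% of all genes). The most abundant, Crybb2, had 34704, 27050 and 30736 FPKM at 0 h and 8121, 7702 and 5873 FPKM at 24 h, and Cryaa, which encodes the chaperone αA-crystallin, had 30393, 27768 and 25609 FPKM at 0 h and 8385, 9962 and 8816 FPKM at 24 h. Their falls, 2.1 and 1.62, were smaller than those of the γ-crystallin genes, which are known to be expressed when cells become fibers. Crybb2 passed in 14 of 15 alternatives, with an adjusted p up to 0.139, and Cryaa in 13 of 15, with an adjusted p up to 0.683. Crygb had 301, 122 and 203 FPKM at 0 h and 10.2, 1.24 and 0.8698 FPKM at 24 h, a change of -5.77 (SE 0.65, adjusted p = 3.60e-04). Crygd had 179.9, 63.8 and 108 FPKM at 0 h and 6.09, 0.412 and 0.866 FPKM at 24 h, Crygc 409, 259 and 359.9 FPKM at 0 h and 18.7, 7.64 and 9.14 FPKM at 24 h and Cryge 12.6, 32.7 and 20.4 FPKM at 0 h and 4.21, 0 and 0.155 FPKM at 24 h. At 24 h replicate 1 was the highest for each of these 4 genes, and the copies are similar enough in sequence that reads may have been shared among them. Cryba4, a β-crystallin, had 1742, 1477 and 1568 FPKM at 0 h and 214, 117 and 93.5 FPKM at 24 h.

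The promoters of these 4 genes are shown because the genes lie in 1 cluster on chromosome 1 and gave 4 of the 12 largest falls. Each line is the 120 bases before the annotated start site on the minus strand (RefSeq, GRCm38.p6), at chr1:65082291-65082410 for Crygb, chr1:65073533-65073652 for Crygc, chr1:65063441-65063560 for Crygd and chr1:65051164-65051283 for Cryge. Capitals mark 2 runs of letters that all 4 share, TTTGTG and the TATA-like CTATATA, searched on the gene's strand and chosen after the sequences were read.
Crygb: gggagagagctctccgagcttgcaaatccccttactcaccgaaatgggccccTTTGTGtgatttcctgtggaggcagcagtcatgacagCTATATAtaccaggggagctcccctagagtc
Crygc: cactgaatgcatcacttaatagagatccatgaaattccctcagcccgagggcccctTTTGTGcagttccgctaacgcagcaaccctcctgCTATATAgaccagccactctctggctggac
Crygd: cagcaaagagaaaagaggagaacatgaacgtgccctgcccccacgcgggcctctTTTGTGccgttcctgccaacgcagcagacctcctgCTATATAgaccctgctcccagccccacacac
Cryge: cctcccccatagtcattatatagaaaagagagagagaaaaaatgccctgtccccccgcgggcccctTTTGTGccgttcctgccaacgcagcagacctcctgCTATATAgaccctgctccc
CTATATA lies within 250 bases before the start of 1.2% of 27025 genes, and TTTGTG of 7.81%. Compared base by base without gaps, the 4 windows share between 27 and 44 of 120 positions. The longest run of bases that a pair shares, at any distance from the start, is 56 bases for Crygd and Cryge and between 8 and 18 bases for the other pairs.

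Genes of fiber cell structure and maturation followed the crystallins, with 18 of 23 tested called lower, 0 higher and a median of -1.88. Mip (aquaporin 0), the most abundant membrane protein of fibers, had 323, 556 and 445 FPKM at 0 h and 50.4, 31.7 and 55.1 FPKM at 24 h, a change of -3.25 (SE 0.25, adjusted p = 6.55e-05). Its locus overlaps a predicted gene, Gm26847, whose level moved with it. Lenep, a small protein of lens epithelium, had 67.6, 20.7 and 47.6 FPKM at 0 h and 5.69, 2.38 and 2.49 FPKM at 24 h. Gja3, a connexin of fiber gap junctions, fell by 2.08, and Bfsp1 (filensin), a beaded filament protein, fell by 3.11. Lim2 and Fabp5 fell by 3.11 and 3.13. Of the others, 2 passed as lower without being called and 3 did not pass.

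Genes of lens epithelial identity moved less uniformly: 8 of 22 were called lower, 1 (Mab21l2) higher, and 15 passed as lower. Mab21l2 did not pass without 0 h replicate 2 or 3, with an adjusted p up to 0.062. Foxe3, a forkhead factor that keeps the lens epithelium proliferating, had 105, 172 and 147 FPKM at 0 h and 27.7, 25.5 and 40.3 FPKM at 24 h, a change of -2.15 (SE 0.22, adjusted p = 2.23e-04). Maf, the factor that drives crystallin transcription in fibers, fell by 1.57, Aqp5 by 1.62 and Npnt, a matrix ligand of integrins, by 2.84. Pax6, the master gene of eye formation, had 92.6, 85.5 and 86.99 FPKM at 0 h and 59.9, 71.7 and 79.4 FPKM at 24 h and did not pass (adjusted p = 0.0515). The remaining large falls were of genes outside these lists. R3hdml, a secreted protein of the CAP family, had 439, 433 and 396 FPKM at 0 h and 13.4, 12.6 and 15.4 FPKM at 24 h, with little spread at either time, and fell by 4.84 (SE 0.1, adjusted p = 7.42e-07). Oca2, a melanosome transport protein, had 16.01, 23.3 and 20.3 FPKM at 0 h and 1.16, 1.26 and 0.669 FPKM at 24 h. Spon2 and Podn, both secreted matrix proteins, fell by 3.54 and 3.38.

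Cell cycle genes rose. Of 22 S phase genes, 21 were called higher (11.3% of all genes), 0 lower, and the median was 1.64. All 22 passed the test with every 24 h library above every 0 h library (42.9% of all genes did not overlap in this way). Mcm3, a subunit of the replicative helicase, had 6.62, 6.75 and 4.78 FPKM at 0 h and 23.6, 34.5 and 29.1 FPKM at 24 h, and Uhrf1, which maintains DNA methylation at replication forks, had 3.48, 2.47 and 2.89 FPKM at 0 h and 14.9, 25.6 and 20.3 FPKM at 24 h. Pcna, the sliding clamp, had 12.6, 10.2 and 12.1 FPKM at 0 h and 34.4, 47.1 and 45.99 FPKM at 24 h. Of the genes of mitosis, 10 of 21 were called higher and 0 lower (median 0.95), and 7 to 13 were called higher with any 1 library left out. Mki67, the usual marker of cycling cells, had 7.17, 4.75 and 6.41 FPKM at 0 h and 10.4, 21.6 and 25.2 FPKM at 24 h, a change of 1.42 (SE 0.3, adjusted p = 0.00626), and replicate 1 was the lowest at 24 h. Mki67 passed in 14 of 15 alternatives, with an adjusted p up to 0.109. The Cdk inhibitors moved in opposite directions. Cdkn1a (p21) had 1.29, 0.547 and 0.555 FPKM at 0 h and 9.89, 6.79 and 8.82 FPKM at 24 h, and Cdkn1c (p57), which holds fiber cells out of the cycle, had 44.1, 56.01 and 45.2 FPKM at 0 h and 10.2, 6.33 and 13.02 FPKM at 24 h. In that list of 20 genes 4 were called higher and 1 lower.

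Genes of ribosome assembly and protein folding rose by smaller amounts. Of 27 ribosome biogenesis genes, 14 were called higher and 25 passed (median 0.83), but only 3 were called with FPKM rescaled to the same median. Npm1 (nucleophosmin) had 64.1, 64.98 and 64.02 FPKM at 0 h and 128, 154 and 165 FPKM at 24 h. Heat shock and unfolded protein response genes had 11 of 28 called higher and 0 lower. Hspa5, the endoplasmic reticulum chaperone BiP, had 98.99, 129 and 116 FPKM at 0 h and 318, 183 and 239 FPKM at 24 h, Atf4, the stress factor that induces amino acid synthesis, rose by 1.5, and Hspa1a, whose copy Hspa1b is nearly identical, rose by 1.82. Cholesterol synthesis genes had 4 of 26 called higher, led by Msmo1 at 1.81, and 2 lower, Insig1 and Srebf1, against 11.3% and 3.77% of all genes. Their median, 0.38, lay near that of all genes. Of 28 nuclear genes of the respiratory chain 0 were called higher and 1, Ndufa1, lower, and their median of 0.19 turned negative with FPKM rescaled to the same median.

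Glycolysis and hypoxia genes had 4 of 24 called higher and 1 lower, against 11.3% and 3.77% of all genes. Adm (adrenomedullin), a vasodilator peptide gene induced by hypoxia, was listed at 0 in all 0 h libraries and reached 10.9, 8.46 and 4.12 FPKM at 24 h, and Hk1 had 16.7, 13.8 and 15.8 FPKM at 0 h and 63.7, 58.9 and 62.8 FPKM at 24 h, while Aldoc had 345, 363 and 359.6 FPKM at 0 h and 43.8, 54.8 and 55.1 FPKM at 24 h. Antioxidant genes split, 7 of 26 called higher and 5 lower, and their median of 0.1 turned negative with FPKM rescaled to the same median. Mt2, a metal-binding metallothionein, had 0.951, 2.26 and 2.304 FPKM at 0 h and 71.6, 53.8 and 47.01 FPKM at 24 h, Sod3, the extracellular superoxide dismutase, had 35.5, 19.1 and 27.1 FPKM at 0 h and 226, 131 and 351 FPKM at 24 h, and Hmox1 (heme oxygenase 1) rose by 2.86. Gstm1, a glutathione transferase, had 374, 376 and 364 FPKM at 0 h and 64.1, 109 and 95.1 FPKM at 24 h. Among annexins, galectins and S100 proteins 4 of 20 were called higher and 0 lower, Lgals1 (galectin 1) with 95.8, 52.1 and 67.2 FPKM at 0 h and 209, 260.5 and 247 FPKM at 24 h and Anxa2 with 102, 86.3 and 107 FPKM at 0 h and 273, 302 and 241 FPKM at 24 h. Of 21 keratin and cornified envelope genes 8 were expressed enough to test, 3 of them called higher and 1 lower, and Sprr1a, an envelope protein of stressed epithelia, had 0, 0.369 and 0.174 FPKM at 0 h and 16.5, 6.46 and 14.3 FPKM at 24 h. Of 18 circadian clock genes 2 were called higher (Bhlhe40, Nr1d1) and 2 lower (Hlf, Tef), against 11.3% and 3.77% of all genes, and the median was 0.28. When FPKM were rescaled to the same median the counts were 1 higher and 4 lower, and to the same sum 6 and 0. The number lower was 0 without 24 h replicate 1 and 1 without 0 h replicate 1.

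**Figure D4:**
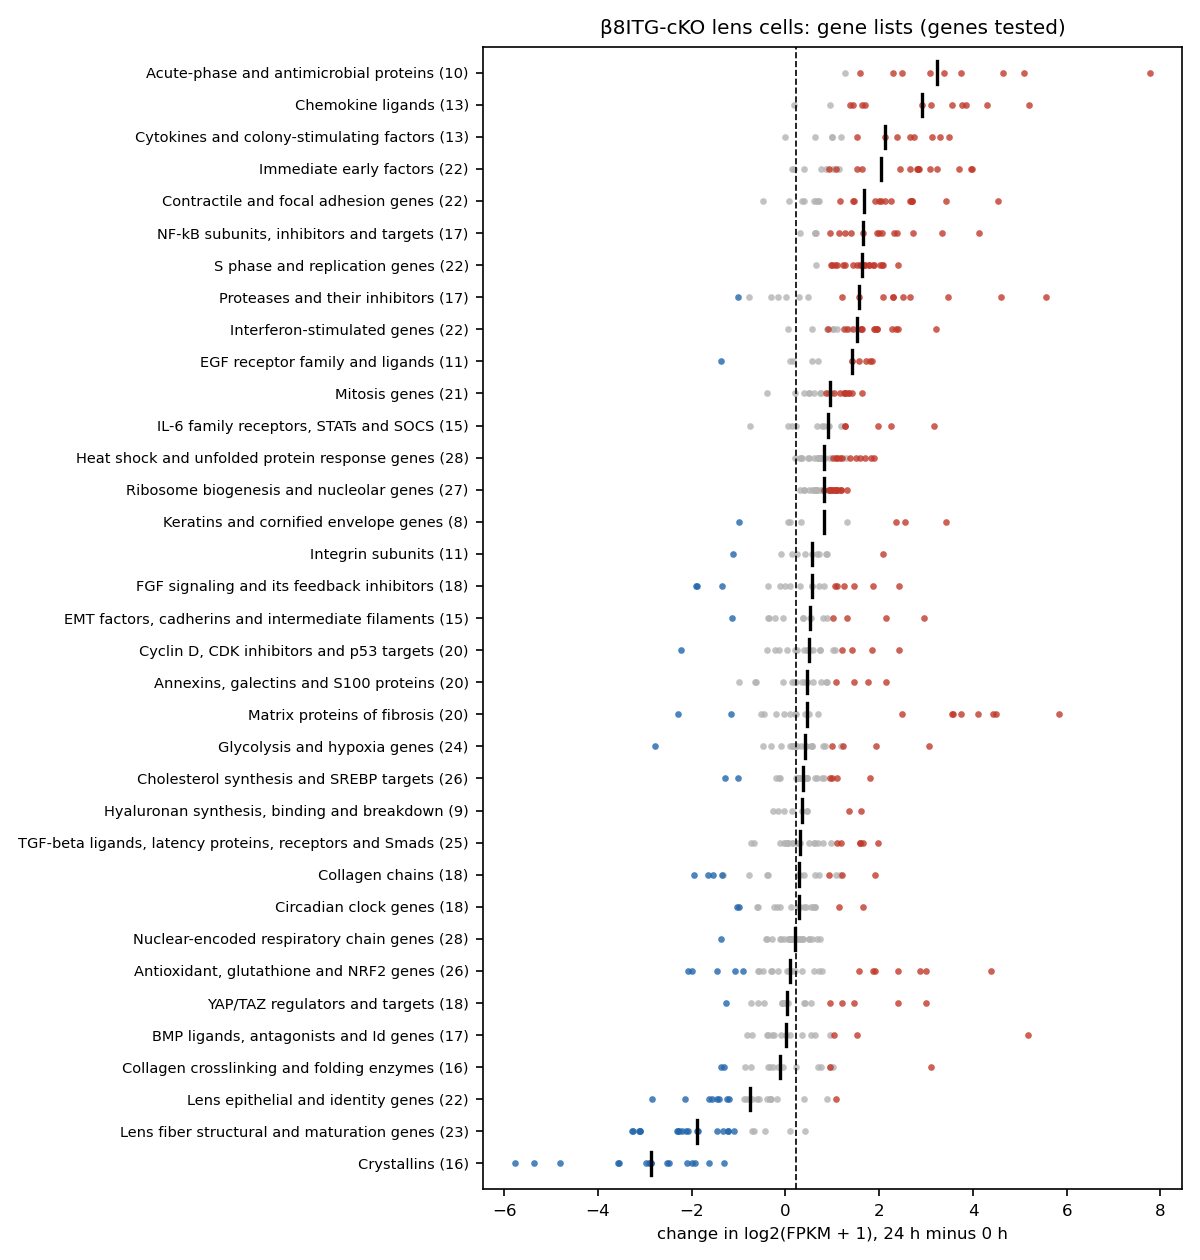
Change between 24 h and 0 h in β8ITG-cKO lens cells (log2(FPKM + 1)) of each tested gene of 35 lists, ordered by the list's median (black tick), with the number of genes tested in brackets; red and blue points were called higher and lower, grey points were not called, and the dashed line is the median of all genes. Medians run from -2.86 for the crystallins to 3.23 for acute-phase proteins, and many lists near the dashed line hold single genes far to either side.

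The same change was set against that in WT LCs in 1 limma fit over the 12 libraries, with the interaction of genotype and time as the test. Of 15262 genes tested, 1433 (9.39%) passed, 1043 (6.83%) with a higher and 390 (2.56%) with a lower change in β8ITG-cKO than in WT. This count moved with single libraries: it was 669 without β8ITG-cKO 0 h replicate 2, 732 without replicate 3 of that group, 909, 819 and 941 without β8ITG-cKO 24 h replicates 1, 2 and 3, and 927 without WT 0 h replicate 1. Without WT 24 h replicate 3 it was 1908, and among the 14903 genes tested in every such fit the number with a lower change went from 383 to 759 and that with a higher change from 1033 to 1120. WT 0 h replicate 2 stood apart, with photoreceptor markers at 1544 FPKM in sum, above the other 2 WT 0 h libraries, and Cryaa listed at 0.

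Immediate early genes, clock genes and retinal markers held more genes with a higher change in β8ITG-cKO than the share of all genes, and annexins, galectins and S100 proteins, lens epithelial identity genes and TGF-β pathway genes more with a lower change. They were not alone in this. A higher change passed in 5 of 24 glycolysis and hypoxia genes and 3 of 28 heat shock genes. A lower change passed in 3 of 20 matrix genes (1 higher), 3 of 18 YAP/TAZ genes (2 higher) and 2 of 15 collagen enzymes (0 higher). Of the 22 immediate early genes 8 passed the interaction, all with a higher change in β8ITG-cKO, and between 5 and 12 passed with any 1 library left out. Atf3, a stress-induced factor, changed by 3.09 in β8ITG-cKO and -1.51 in WT (difference 4.59, SE 0.69, adjusted p = 0.00537). Fos changed by 3.24 and -0.25 (difference 3.49, SE 0.86, adjusted p = 0.0278), and passed in 5 of 12 fits that left out 1 library. Jun and Junb passed in all 12, with differences of 2.29 and 2.53. In WT, Fos had 83.6, 29.6 and 14.02 FPKM at 0 h and 10.2, 61.7 and 31.7 FPKM at 24 h and Junb had 31.2, 23.8 and 8.98 FPKM at 0 h and 41.6, 76.8 and 45.9 FPKM at 24 h. For both genes every WT library lay above every β8ITG-cKO library at 0 h, and the genotypes overlapped at 24 h. Ccl2 changed by 5.2 against 0.38 (difference 4.83, SE 0.48, adjusted p = 0.00144). It had 309.7, 189 and 105 FPKM at 0 h and 205, 281 and 236 FPKM at 24 h in WT, so all 3 WT libraries were far above the β8ITG-cKO libraries at 0 h, while the genotypes overlapped at 24 h. In the chemokine list 4 of 13 passed, 3 with a higher and 1 with a lower change. Of the NF-κB list 4 of 17 passed, and 1 to 4 did with any 1 library left out.

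Of the 18 clock genes, 11 passed with a higher change in β8ITG-cKO, and between 9 and 11 passed with any 1 library left out. Nr1d1 (REV-ERBα), a repressor at the core of the clock, had 7.097, 7.503 and 7.86 FPKM at 0 h and 15.5, 22.96 and 15.9 FPKM at 24 h in β8ITG-cKO and 33.6, 45.2 and 38.7 FPKM at 0 h and 8.16, 13.3 and 9.92 FPKM at 24 h in WT, a difference of 2.98 (SE 0.26, adjusted p = 9.00e-04). The time of day of each operation and collection is not given in the sources used here, so genotype and clock time cannot be told apart. Photoreceptor markers passed in 19 of 22 genes, all with a higher change in β8ITG-cKO (median change 1.56 against -1.47 in WT). The number that passed was 19 without WT 0 h replicate 2 and 8 without β8ITG-cKO 0 h replicate 2, the lowest of 12 such fits. The median changes of this retinal RNA had opposite signs in the 2 genotypes, and its part in the other differences was not tested.

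Other genes changed less, or in the other direction, in β8ITG-cKO. With a lower change there, 6 of 20 annexins, galectins and S100 proteins passed (6 to 10 with any 1 library left out), 4 of 24 TGF-β pathway genes (3 to 5) and 5 of 22 lens epithelial identity genes (1 to 6, the lowest without β8ITG-cKO 0 h replicate 3). Anxa2 changed by 1.46 against 2.72, S100a6 by 0.47 against 2.2, Axl by 3.001 against 4.61, and each passed in all 12 fits that left out a library. For each of these genes every β8ITG-cKO library lay above every WT library at 0 h, and the genotypes overlapped at 24 h. That overlap came from WT 24 h replicate 3 alone. WT 24 h replicates 1 and 2 lay above every β8ITG-cKO 24 h library for each of these genes. At 0 h Axl had 13.1, 7.78 and 10.8 FPKM in β8ITG-cKO and 3.34, 3.61 and 3.79 FPKM in WT. S100a6 had 552, 374 and 499 FPKM against 211, 176 and 185 FPKM, and Anxa2 had 102, 86.3 and 107 FPKM against 57.7, 49.2 and 63 FPKM. Cdh1 fell in β8ITG-cKO by 1.15 and changed by 0.44 in WT, where it had 58.7, 55.6 and 63.05 FPKM at 0 h and 75.2, 77.5 and 89.98 FPKM at 24 h (difference -1.59, SE 0.16, adjusted p = 0.00144). For 4 genes of the wound response and the fiber gene Mip the interaction did not pass: the differences were 0.84 for Lcn2 (SE 0.72), -0.24 for Tnc (SE 0.56), -1.16 for Fn1 (SE 0.51), -0.58 for Acta2 (SE 0.64) and -0.11 for Mip (SE 0.62), with adjusted p from 0.191 to 0.938. In WT, Acta2 had 54.2, 54.7 and 39.4 FPKM at 0 h and 526, 968 and 201 FPKM at 24 h, Fn1 had 3.29, 2.13 and 2.84 FPKM at 0 h and 109.6, 181 and 46.7 FPKM at 24 h and Tnc had 0.263, 0.991 and 0.559 FPKM at 0 h and 114, 209 and 48.03 FPKM at 24 h. WT 24 h replicate 3 was the lowest of its group for all 3 of these genes. Without it 9 of 22 contractile and focal adhesion genes passed with a lower change in β8ITG-cKO, against 2 with all libraries and 0 or 1 without any other. Of the 16 crystallin genes 0 passed, with all libraries or any 1 left out. Of the 23 fiber genes 0 passed, but 2 did without WT 24 h replicate 2 and 1 without β8ITG-cKO 24 h replicate 1. Of the 22 S phase genes 0 passed, but 4 did with a lower change without WT 24 h replicate 3 and 1 with a higher change without WT 24 h replicate 1.

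**Figure D5:**
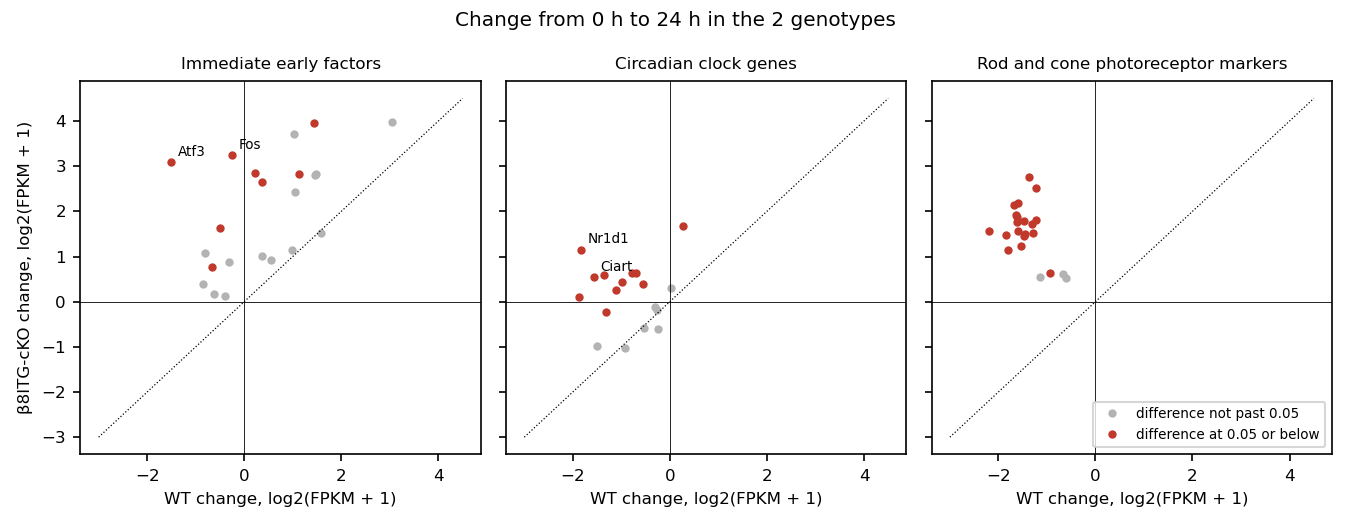
Change from 0 h to 24 h in β8ITG-cKO (y axis) against the change in WT (x axis), both on the log2(FPKM + 1) scale, for 3 gene lists; red points passed the interaction test at an adjusted p of at most 0.05, grey points did not, and the dotted line marks equal change. The red points lie above the line in all 3 panels, with 8 immediate early genes, 11 clock genes and 19 photoreceptor markers, and most photoreceptor markers have a negative change in WT and a positive change in β8ITG-cKO.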

How the data were processed

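Lens capsules with attached LCs were collected at 0 h and 24 h after surgery, 5 pooled per library, and total RNA was sequenced. Per the submitters' processing notes and the study's methods, the authors trimmed reads with cutadapt 1.12, aligned them to mm10 (GRCm38.p5) with TopHat2 2.1.0 and computed FPKM per gene with Cuffdiff 2.2.1. The deposited FPKM of each library were used as they stand. The 8 pooled columns, which hold the authors' own group values, were not used, and neither were the authors' comparisons, p-values and q-values. The strandedness of the counting is not given in the sources used here.

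Genes that averaged 0.5 FPKM or more in the 6 libraries were tested with limma 3.58.1 (R 4.3.3, with an intensity trend) on log2(FPKM + 1), with Benjamini-Hochberg adjustment over all genes tested and no replicate block. An exact permutation test of 3 against 3 libraries cannot go below p = 0.1. The interaction with genotype was fitted over all 12 libraries. On simulated data for this comparison (15237 genes), a 2.5-fold change was recovered for 88.5% of the altered genes, a 4-fold change for 95.0% and an 8-fold change for 99.5%. The altered genes were drawn only from well-expressed genes, far above the filter of 0.5 FPKM. Recovery needed the adjusted p and the direction, not the fold and level criteria of a call. The rates therefore do not apply to low genes or to calls. Alternatives were pseudocounts of 0.1 and 0.5, filters, rescaled FPKM, 1 fit over 12 libraries, a replicate block and each library left out.

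The genes and lists were chosen with earlier results of these data known. Genes named are the 12 largest rises and falls among called genes with at least 10 FPKM in the higher group, no overlap and no predicted or small RNA symbol (n-TSgct4, a tRNA gene, was left out with these), up to 4 of the largest changes that passed and the 2 highest levels of each list, the genes the study followed and the highest markers. A further 43 of 178 genes named were chosen after their values were seen, as members that go against or complete their list. Some items that the rule names are not reported here. Promoters came from RefSeq (GRCm38.p6).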

Additional observations from a re-analysis of the deposited data

Results flagged for a closer look

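The change from 0 h to 24 h differed between β8ITG-cKO and WT LCs, by the interaction test at an adjusted p of at most 0.05 (limma, Benjamini-Hochberg), for these genes named above. Each value is the change in β8ITG-cKO minus the change in WT on the log2(FPKM + 1) scale, with 3 libraries per group. Such a value can reflect the levels at 0 h, at 24 h or both. For Ccl7, Adamts1, Nfkbia and Cebpd, as for Fos, Junb and Ccl2, every WT library lay above every β8ITG-cKO library at 0 h. At 24 h the genotypes overlapped for these genes. Ccl7 had 22.9, 17.1 and 3.77 FPKM in WT at 0 h against 0.126, 0.259 and 0.285 FPKM in β8ITG-cKO. For Cdh1 and Nr1d1 the genotypes overlapped at neither time.

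Among immediate early and acute-phase factors the difference was 4.59 for Atf3, 3.49 for Fos, 2.53 for Junb, 2.29 for Jun, 1.42 for Jund and 2.06 for Cebpd. Among chemokines and NF-κB inhibitors it was 4.83 for Ccl2, 3.21 for Ccl7, 2.43 for Tnfaip3 and 1.76 for Nfkbia. Among matrix, protease and adhesion genes it was 3.33 for Adamts1, 1.96 for Cyr61, -2.83 for Timp1, -2.01 for Ecm1, -1.47 for Lama3, -0.78 for Col4a6, -1.59 for Cdh1 and 2.14 for Krt18. Among signaling genes it was -1.61 for Axl, 1.40 for Btc, -0.58 for Tgfb2 and 2.23 for Adm. Among stress and metabolic genes it was 2.65 for Mt2, 2.09 for Hspa1a, 1.85 for Hspa1b, 1.40 for Hk1 and -1.02 for Ndufa1. For clock genes it was 2.98 for Nr1d1 and 1.40 for Bhlhe40. For calcium-binding proteins and a lens factor it was -1.74 for S100a6, -1.26 for Anxa2 and -0.81 for Maf. For red blood cell genes it was 3.37 for Hba-a1 and 3.16 for Hba-a2, and for Aldh3a1, abundant in the cornea and also present in lens, it was -2.29. For the tRNA gene n-TSgct4 the fitted difference was -17.68, which rests on exact zeros and has no reliable size. For small nucleolar RNA genes it was 2.48 for Snord116l2 and -1.65 for Snord22. With each library left out in turn, the call was lost in at least 1 of 12 fits for Snord22, Lama3, Ndufa1, Col4a6, Tgfb2, Hk1, Btc, Nfkbia, Hspa1a, Krt18, Snord116l2, Hba-a2, Hba-a1 and Fos, with the highest adjusted p without WT 0 h replicate 1 for Snord22 and Snord116l2 and without β8ITG-cKO 0 h replicate 2 or 3 for the rest of these, and was kept in all 12 for the others.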

How the results depend on the processing

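The counts of genes called moved with scale and threshold. With FPKM rescaled to the same median 890 genes were called lower, and with FPKM rescaled to the same sum 3019 were called higher and 345 lower. A fold over 4 left 899 (745 higher, 154 lower), and the adjusted p alone gave 7030 (5394 and 1636). Leaving out each library in turn gave 2216 to 2387 called, 1617 to 1799 higher and 528 to 632 lower. The pseudocounts of 0.1 and 0.5, the filters and the fit over all 12 libraries kept each of these counts within 1.5 times. The 1433 genes past the interaction test became 930 with a filter at 2 FPKM, 2248 with FPKM rescaled to the same sum, and 669 to 1908 without each library in turn. A gene that passed the test could hardly change sign, since it was selected in the same libraries. Of the 167 genes named that passed the test, 151 passed under every alternative in which they were tested, and 0 changed sign under any. Among those that did not pass, Cx3cl1 had -0.098 after rescaling FPKM to the same median, Il6st had -0.15 after rescaling FPKM to the same median, Rn7s1 had 0.0031 after rescaling FPKM to the same sum, Rn7s2 had 0.014 after rescaling FPKM to the same sum, Rpph1 had 0.12 after rescaling FPKM to the same sum and Pax6 had 0.0098 after rescaling FPKM to the same sum. Rnr2, which also did not pass, ranged from -6.77 to 0.53 without each library in turn. The causes were not tested.

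The libraries' replicate numbers did not pair them: the deviations from group means of same-numbered libraries correlated at -0.002, -0.035 and 0.046. With the replicate block 2301 genes were called, 1725 higher and 576 lower, of which 2288 were called without it, and 1024 passed the interaction. Rescaling to the same sum without the crystallins was chosen after seeing the data and gave 2350 higher and 445 lower. The depth is unknown, so no counting error could be given, and 3 libraries against 3 limit every test.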

Other observations

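Total RNA libraries keep part of the small structural RNAs. The 5S ribosomal RNA genes lie in a tandem array on chromosome 8, where 33 near-identical copies between bases 123538784 and 123622046 (mm10) were tested, and 32 of them were called lower in β8ITG-cKO LCs at 24 h, by 0.99 to 2.00 on the log2 scale for the copies tested (median -1.40). They make up 5.57% of the 575 genes called lower. Since reads may be shared among the copies, the array counts as 1 measurement, and its summed level was 65097, 46486 and 41977 FPKM at 0 h and 26515, 19857 and 13335 FPKM at 24 h. The Y RNA gene Rny3, whose product binds the Ro protein, had 66087, 39328 and 56611 FPKM at 0 h and 10777, 11275 and 8479.9 FPKM at 24 h, and all 3 later libraries lay far below the earlier ones. Rny3 passed in 14 of 15 alternatives, with an adjusted p up to 0.226. Among the other small structural RNA genes looked at, Rny1 and Snord22 were called lower, with -1.08 and -1.36, and Snord116l1 and Snord116l2 higher, with 1.15 and 1.16. Both of the latter passed in 8 of 15 alternatives, not without 0 h replicate 1 or 3 or 24 h replicate 2 or 3, and Rny1 did not pass without 0 h replicate 3. Snora15 was listed at 0 in all 0 h libraries and had 47.4, 27.8 and 67.3 FPKM at 24 h. Rn7sk, Rn7s1, Rn7s2, Rpph1 and Rmrp did not pass, with an adjusted p of 0.164, 0.5799, 0.593, 0.473 and 0.141 in that order.

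Bc1 was also called higher. This small cytoplasmic RNA of neurons had 7866, 6332 and 8047 FPKM at 0 h and 17150, 20360 and 20208 FPKM at 24 h and rose together with the retinal markers. Bc1 passed in 14 of 15 alternatives, with an adjusted p up to 0.237. The tRNA gene n-TSgct4 had 10206, 8286 and 11821 FPKM at 0 h and was listed at 0 in all 24 h libraries, while among the 6 WT libraries it was listed at 0 in 5. Such a pattern of very high values and exact zeros also occurred for the mitochondrial rRNA gene Rnr2, which was listed at 0 in 1 of the 24 h libraries. In all, 164 of the 2294 called genes have symbols of predicted genes, clones, pseudogenes or small RNAs, 75 of them higher and 89 lower.

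Abundant genes of secreted and lysosomal proteins outside the lists also fell. Igfbp7, an insulin-like growth factor binding protein, had 1798, 2905 and 2468 FPKM at 0 h and 518, 724 and 692 FPKM at 24 h. Clu (clusterin), an extracellular chaperone, had 1594, 1777 and 1671 FPKM at 0 h and 735, 758 and 916 FPKM at 24 h, and Ctsl (cathepsin L), a lysosomal protease, had 1159, 1756 and 1465 FPKM at 0 h and 555, 756 and 859.6 FPKM at 24 h. In each the 24 h libraries lay below the 0 h libraries. These genes were chosen after their values were seen.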
